A study of Homo sapiens with 4 samples.

Results

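The data described here were the 2 arrays, of 4 in the series, that compared MDS-L/CDA cells with MDS-L cells in the absence of 5-azacytidine (AZA), chosen by the sample titles. MDS-L is an established cell line from a patient with myelodysplastic syndromes (MDS), a group of clonal disorders of blood stem cells, and MDS-L/CDA is its AZA-resistant derivative, made by transducing CDA, the gene for cytidine deaminase. Both lines were kept in RPMI1640 with 10% FBS, 50 μM 2-mercaptoethanol and IL-3, for which the labels give 20 ng/mL and the study's methods a lower concentration, and both received 0.1% DMSO for 72 h. The other pair of arrays held the same lines after 72 h with AZA, at 1 μM by the treatment protocol and the methods and at another unit in the titles. It shares no array with the vehicle pair, and its values are given beside those of vehicle as a description. Whether MDS-L/CDA is 1 clone, and at which passage the lines were compared, was not given in the sources used here. For the MDS-L/CDA vehicle array and the MDS-L AZA array, 1 label field names the opposite treatment, and the groups used here follow the title, description and source name.

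With 1 array per condition there was no replicate check, no test was possible and no error can be given for a difference between the lines. Every call below compares 2 libraries, and a difference between the cultures cannot be told apart from a difference between the lines.

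AZA is a cytidine analogue that is taken up, phosphorylated and built into RNA and, after reduction, into DNA, where it traps DNA methyltransferases. Cytidine deaminase converts such analogues into uridine analogues before they are phosphorylated. MDS-L cells are growth factor dependent and keep features of immature myeloid, erythroid and mast cell or basophil precursors, so that lineage genes are a natural description of how far a derivative has moved from its parent.

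Signals are given scaled, so that the 75th percentile of the probes of each array is 100. A probe was taken as measured on an array when the scanner software flagged it as well above background. The lowest such signal was 19.0 in MDS-L vehicle and 27.2 in MDS-L/CDA vehicle, and below it a signal is only an upper bound. A gene was called higher or lower in MDS-L/CDA when, for at least 1 of its probes, the ratio and the Z score both reached 2 and the brighter array was well above background. It was called on in 1 line only when none of its probes was well above background on the other array and the lower bound of the ratio was at least 2. Folds against an array below background are lower bounds, written as at least N-fold.

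Of 41804 gene names on the array, 15701 had a probe well above background on at least 1 vehicle array. The 2 arrays were alike over most of them. Over the 18630 probes that both arrays measured, the SD of the log2 ratio was 0.45, the median was 0.09 and 3.82% differed at least 2-fold. By the rule 250 genes, or 1.59% of those tested, were higher in MDS-L/CDA and 563, or 3.59%, were lower. MDS-L vehicle had 101 genes (0.643%) that were on in it alone, and MDS-L/CDA vehicle had 81 (0.516%). In the AZA pair 433 genes (2.64%) were called higher in MDS-L/CDA and 717 (4.37%) lower, while 124 (0.755%) were on in MDS-L/CDA only and 313 (1.91%) in MDS-L only.

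The split between higher and lower calls depended on the scaling. At the 75th percentile 30.8% of the calls were higher, against 26.7% with quantile normalization of the 4 arrays, 12.2% with normexp background correction, 7.97% with no scaling and 4.01% with each array scaled to its median. The median log2 ratio of all probes was -0.27 with no scaling and -0.43 with median scaling. Differences below are therefore given relative to the array as a whole.

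Parts of the slide stood apart. In a patch at the right edge, 81 of the 504 probes measured on both vehicle arrays (16.1%) differed at least 2-fold from the median ratio, against 4.04% of all such probes, and this was noticed after the values had been seen. Of the genes called higher, 36 differed at least 2-fold on the MDS-L vehicle array alone while the other 3 arrays lay within 2-fold of one another, and the same held for 98 of the genes called lower. The MDS-L/CDA vehicle array differed alone for 20 of the higher and 62 of the lower genes. Where a called gene had another probe well above background on both arrays, that probe passed 2-fold in the same direction for 8 of 59 higher genes and 5 of 142 lower genes. Among genes called in both pairs this was so for 4 of 16 higher and 0 of 13 lower genes, and probes of 1 gene can read different transcripts. When probes were left out of whose 40 nearest neighbours on the array at least 10% differed 2-fold, 217 genes were called higher and 391 lower. The part of the slide in single calls was not tested further. Genes called in both pairs of arrays are put first, since the pairs share no array. The AZA arrays also carry the AZA effect of each line, so they are not replicates of the vehicle arrays. A call in both pairs does not repeat the difference without AZA.

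**Figure D1:**
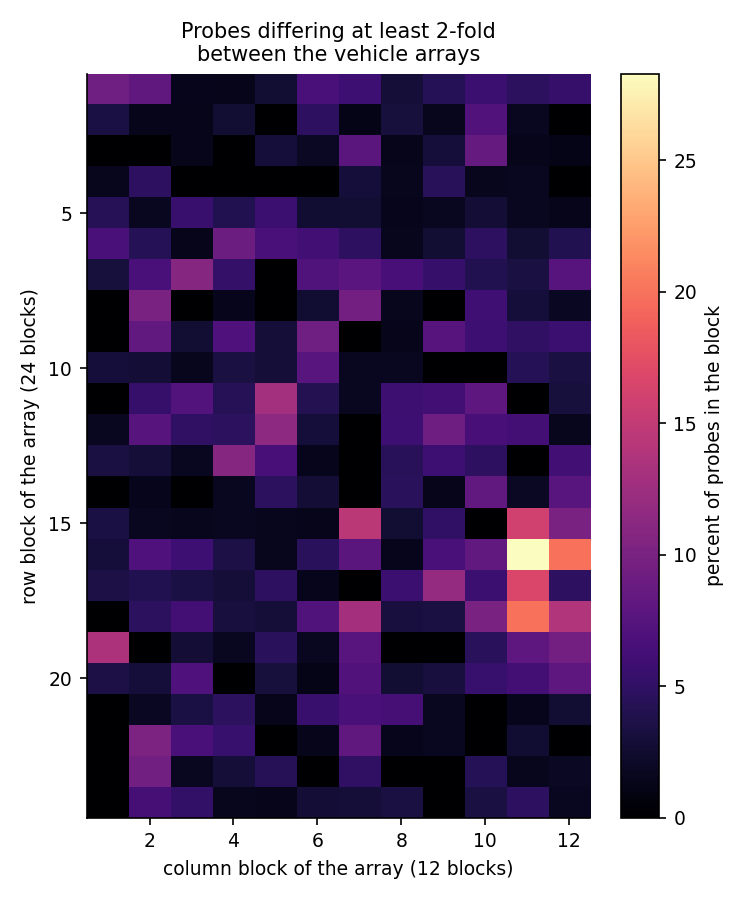
Share of probes that differed at least 2-fold between the vehicle arrays, relative to the median ratio, in 288 blocks of the array; the axes are blocks of rows and columns and the colour gives the percent of probes well above background on both arrays. Most blocks lie near the median of 3.17%, and a group of blocks at the right edge reaches 28.3%.

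The genes the labels and the treatment turn on came first. CDA, the transduced gene, had 1 probe (chromosome 1, 20945069 to 20945128 of hg19). Its scaled signal was 10.5 with vehicle and 9.43 with AZA in MDS-L, and 10.99 and 14.6 in MDS-L/CDA. None of the 4 was well above background, so the probe did not separate the transduced line from its parent, and whether it lies within the transduced sequence was not tested. DNMT1, the maintenance methyltransferase that AZA traps, read 846 in MDS-L vehicle and 896 in MDS-L/CDA vehicle, a ratio of 1.06.

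Other genes of the pathway of the drug had few calls in the untreated lines. Of 31 measured genes for uptake and metabolism of pyrimidine analogues, none was called in either direction. Of all tested genes 1.59% were called higher and 3.59% lower, so the absence of calls in short lists says little. The median log2 ratio of the 31 genes was 0.02, against 0.07 for all measured genes. SLC29A1, the equilibrative nucleoside transporter, read 10862 in MDS-L and 10977 in MDS-L/CDA vehicle. UCK2, the uridine-cytidine kinase that activates AZA, had a log2 ratio of 0.19, UCK1 of -0.23 and DCK, which activates deoxycytidine analogues, of -0.53. Of 21 measured DNA methylation and demethylation genes, the median was 0.04 and none was called higher or lower. APOBEC3B, a cytidine deaminase that acts on DNA, was on in MDS-L only, at 58.4 against 26.5 below background in MDS-L/CDA, at least 2.14-fold. Of 9 measured ABC transporters the median was -0.03, and ABCC5 was called lower through 1 probe (851 against 381) while its brightest probe had a log2 ratio of -0.03. ABCB1, the multidrug transporter, was below background on all 4 arrays.

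Of the 250 genes higher in MDS-L/CDA vehicle, 51 were also higher in the AZA pair, which is 20.4% of the vehicle list and 11.8% of the AZA list. Of the 563 lower genes, 98 were lower in the AZA pair as well, 17.4% of the vehicle list and 13.7% of the AZA list. By contrast 9 of the higher and 9 of the lower genes were called in the opposite direction with AZA. Of the 101 genes on in MDS-L only, 26 were again on in MDS-L only with AZA, and of the 81 on in MDS-L/CDA only, 3 were.

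**Figure D2:**
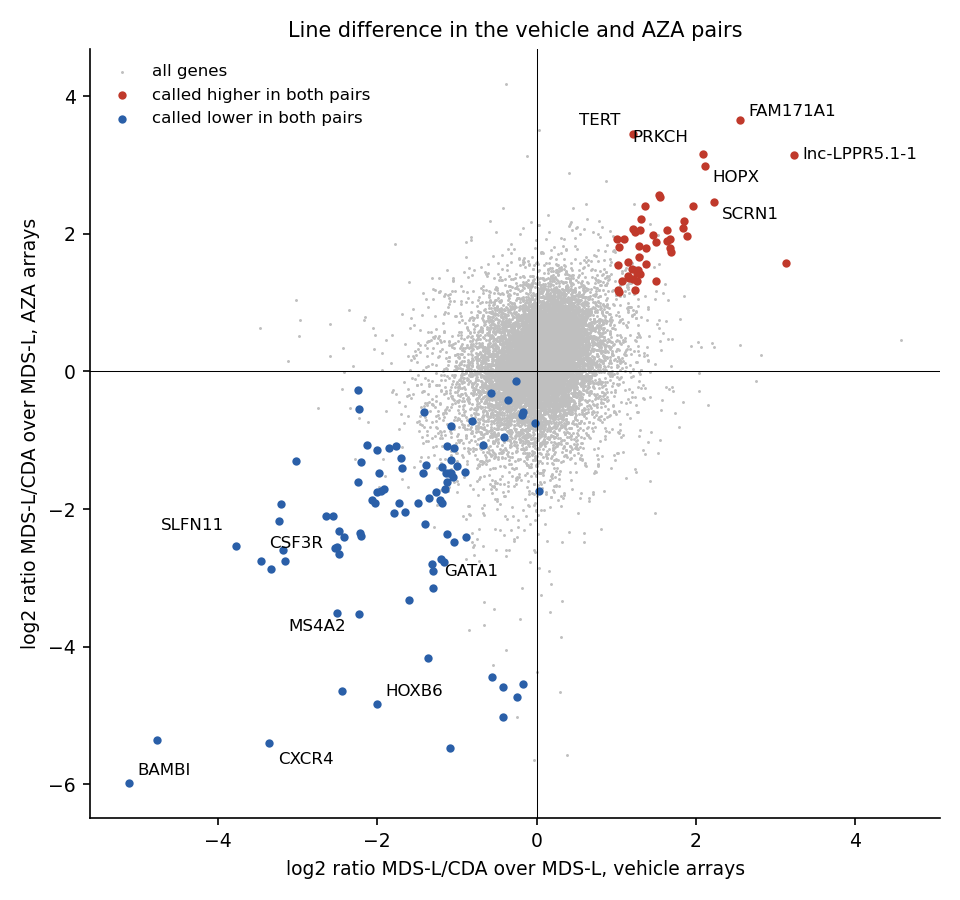
Log2 ratio of MDS-L/CDA over MDS-L on the vehicle arrays (x axis) and the AZA arrays (y axis) for 15095 genes measured in both pairs, 1 point a gene, with ratios against an array below background at their bound. Red and blue points are genes whose same probe was called higher or lower in both pairs; BAMBI lies farthest to the lower left and lnc-LPPR5.1-1 and FAM171A1 to the upper right.

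Genes named below for the largest vehicle ratios or bounds differ between the vehicle arrays by that choice. Among genes that MDS-L/CDA had lost, BAMBI stood first. BAMBI, a decoy receptor that dampens TGF-β and BMP signalling, read 942 in MDS-L vehicle and 1863 in MDS-L AZA, and 24.01 and 25.6, both below background, in MDS-L/CDA vehicle and AZA. Both MDS-L arrays were high and both MDS-L/CDA arrays were at background, and the vehicle ratio was at least 34.6-fold. BMP6, a ligand of the same family, read 67.2 and 261 in MDS-L and was below background on both MDS-L/CDA arrays.

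CXCR4, the receptor for the chemokine CXCL12 that holds blood stem cells in the marrow, read 278 in MDS-L vehicle and 1252 in MDS-L AZA. It was below background in MDS-L/CDA, at 6.37 with vehicle and 6.80 with AZA, so it was at least 10.2-fold lower with vehicle. SLFN11, which blocks stalled replication forks and whose level goes with sensitivity to DNA-damaging drugs, read 372 and 172 in MDS-L and 11.9 and 14.1, both below background, in MDS-L/CDA. It was at least 13.7-fold lower with vehicle. Both genes were measured on both MDS-L arrays and on neither MDS-L/CDA array.

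LINC01420 read 736 in MDS-L vehicle and 24.4 in MDS-L/CDA vehicle, at least 27.03-fold lower, and its other measured probe was at least 4.87-fold lower, with 10% and 12.5% of the neighbours of these probes differing 2-fold. ZNF215, a zinc finger gene, read 275 against 6.72, at least 10.1-fold lower, and its other measured probe was at least 2.81-fold lower. ITPKA, an inositol trisphosphate kinase, read 255 against 17.7, at least 9.36-fold lower. CPVL, a carboxypeptidase of myeloid cells, read 248 against 5.89, at least 9.10-fold lower. All 4 of these genes were again lower in MDS-L/CDA in the AZA pair.

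The remaining names among the 10 largest losses repeated less well. RANBP2, a nuclear pore protein, read 236 in MDS-L vehicle and 26.1 in MDS-L/CDA vehicle, but 95.2 and 106 in the AZA pair. The probe lnc-EPHA1-1 read 340 against 30.7 with vehicle and 68.1 against 106 with AZA, and lnc-ANGPTL2-3 was above background in MDS-L vehicle alone, at 243. These 3 differences were seen in the vehicle pair only.

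Genes well above background on both vehicle arrays and lower in MDS-L/CDA were led by CSF3R, the receptor for granulocyte colony-stimulating factor. It read 739 and 414 in MDS-L, vehicle first, and 67.4 and 61.6 in MDS-L/CDA. Both MDS-L arrays were higher than both MDS-L/CDA arrays, and the vehicle ratio was 10.97-fold. ZNF503, a transcriptional repressor, read 747 and 952 in MDS-L and 83.7 and 141 in MDS-L/CDA, 8.92-fold lower with vehicle. AKAP8, a nuclear anchoring protein, read 656 and 387 in MDS-L and 70.8 and 102 in MDS-L/CDA, 9.26-fold lower with vehicle. The transcript ENST00000459875 was 8.12-fold lower and was also lower with AZA, while 20% of its neighbours on the array differed 2-fold.

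For the other 6 of these 10, the probe with the largest ratio stood apart on 1 array. POLR2E, TFCP2, CCNJ and CREB1 were bright on the MDS-L vehicle array alone; CREB1 for instance read 337 there, 71.0 in MDS-L with AZA, and 46.1 and 114 in MDS-L/CDA with vehicle and AZA. Between 12.5% and 22.5% of the neighbours of these 4 probes differed 2-fold. Another CREB1 probe read 217 in MDS-L vehicle and 216 in MDS-L/CDA vehicle. The second TFCP2 probe read 78.9 and 46.8 in MDS-L, vehicle first, and was below background on both MDS-L/CDA arrays, at least 2.40-fold lower with vehicle and at least 1.58-fold lower with AZA. RABGAP1L and UCHL5 were dim on the MDS-L/CDA vehicle array alone, with RABGAP1L at 85.8 there and between 452 and 735 on the others, and the brightest other probe of RABGAP1L was higher in MDS-L/CDA vehicle (1012 against 620).

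Genes higher in MDS-L/CDA were fewer. FAM171A1, a membrane protein, read 128 and 63.1 in MDS-L, vehicle first, and 752 and 793 in MDS-L/CDA. Both MDS-L/CDA arrays were above both MDS-L arrays, and the vehicle ratio was 5.86-fold. Another FAM171A1 probe was measured in MDS-L/CDA only, at least 3.01-fold higher with vehicle. SCRN1, named for a role in secretion, read 574 and 407 in MDS-L and 2681 and 2235 in MDS-L/CDA, 4.67-fold higher with vehicle. HOPX, a homeodomain-only cofactor found in stem cells of several tissues, read 203 and 44.2 in MDS-L and 875 and 350 in MDS-L/CDA, 4.31-fold higher with vehicle. The largest ratio was that of lnc-LPPR5.1-1, a long noncoding RNA, at 284 against 30.2, 9.42-fold, and it was 8.84-fold higher with AZA.

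MYLIP, CYP20A1, NOC2L, AK074630, ZNF791 and CCDC174 complete the 10 largest. All 6 were dim on the MDS-L vehicle array and alike on the other 3 arrays. NOC2L, a histone-binding repressor, read 1695 and 5229 in MDS-L, vehicle first, and 7922 and 6654 in MDS-L/CDA, and its other probe had a ratio of 1.22. For MYLIP, CYP20A1 and NOC2L 15% of the neighbours differed 2-fold.

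Further genes called in both pairs were chosen after their values were seen. PRKCH, the eta isoform of protein kinase C, read 1034 and 430 in MDS-L and 4401 and 3837 in MDS-L/CDA, with the vehicle value given first in each line. TCF15, a basic helix-loop-helix factor of embryonic and progenitor cells, read 501 and 532 in MDS-L and 1852 and 2074 in MDS-L/CDA. BIRC3, an NF-κB target that blocks cell death, read 56.3 and 63.4 against 180 and 219. LHX2, a LIM homeodomain factor, read 31.6 in MDS-L vehicle, was below background in MDS-L AZA, and read 113 and 118 in MDS-L/CDA. Each of these genes was higher on both MDS-L/CDA arrays than on both MDS-L arrays, with vehicle ratios of 4.26, 3.70, 3.20 and 3.59. As they were chosen for calls in both pairs, this follows in part from the choice.

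Of the 10 largest bounds among genes on in MDS-L/CDA only, 1 was called again with AZA. This was the transcript ENST00000507290 (chromosome 5, 1632778 to 1632837 of hg19), which read 61.1 and 63.1 in MDS-L/CDA vehicle and AZA and was below background on both MDS-L arrays, at least 3.22-fold higher. SPIN2B, a histone reader of the spindlin family, had the largest bound, at least 23.8-fold. It was below background in MDS-L vehicle but read 382 with AZA there, and 453 and 522 in MDS-L/CDA with vehicle and AZA, so that the MDS-L vehicle array alone was low. SLCO4C1, LRRC57, CABP7, ELOVL7 and lnc-GATA5-2 were likewise below background in MDS-L vehicle and measured on the other 3 arrays. The probes lnc-DLGAP2-3, ENST00000511840 and ENST00000580487 were above background on the MDS-L/CDA vehicle array only.

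Genes of mast cells, basophils and eosinophils were lower in MDS-L/CDA as a group. These cells store histamine, proteases and cationic proteins in granules and carry the high-affinity IgE receptor. Of 28 genes of the list on the array, 16 were measured on at least 1 vehicle array and 15 of the 16 had a ratio below 1. Among all measured genes 6649 of 15682 had a ratio below 1. The median log2 ratio was -0.68, against 0.07 over all measured genes. Over the 11 members measured on both vehicle arrays it was -0.29, against 0.09, since members measured in MDS-L alone entered through the line in which they were bright. The count of 15 includes these members, whose direction the filter favoured. Of the 16, 7 were called lower, 4 of these were on in MDS-L only, and none was called higher, where 3.59% of all tested genes were called lower. In the AZA pair 10 of 19 tested members were called lower, with a median log2 ratio of -1.56, where 4.37% of all tested genes were called lower and the median of all was 0.17. These AZA values also include members measured in MDS-L alone, such as CLC and RNASE2, whose direction the filter favoured. The AZA median over members measured on both arrays was not taken. In bulk RNA, fewer cells of a type and less RNA per cell cannot be told apart.

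The granule and receptor genes carried the shift. MS4A2, the beta chain of the IgE receptor, read 127 in MDS-L vehicle and 475 in MDS-L AZA, and 24.7, below background, and 41.2 in MDS-L/CDA vehicle and AZA, at least 4.68-fold lower with vehicle. A second MS4A2 probe was below background on both MDS-L/CDA arrays. FCER1A, the alpha chain, read 734 and 4184 in MDS-L and 356 and 1448 in MDS-L/CDA, 2.06-fold lower with vehicle. FCER1G, the gamma chain that other receptors share, had a log2 ratio of -0.29 and was not called.

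RNASE2, the eosinophil-derived neurotoxin, read 154 and 173 in MDS-L and was below background on both MDS-L/CDA arrays, at least 5.67-fold lower with vehicle. CLC, the protein of Charcot-Leyden crystals, read 57.8 and 1315 in MDS-L and was below background on both MDS-L/CDA arrays, at least 2.12-fold lower with vehicle and at least 44.5-fold lower with AZA. CPA3, the mast cell carboxypeptidase, read 1199 in MDS-L vehicle and 363 in MDS-L/CDA vehicle, 3.31-fold lower, and HDC, the enzyme that makes histamine, read 1451 and 664, 2.18-fold lower. Of the neighbours of the CPA3 probe 10% differed 2-fold. IL1RL1, the receptor for IL-33, read 81.5 in MDS-L vehicle and 29.5, below background, in MDS-L/CDA vehicle, but 185 and 224 with AZA, so its difference was not seen in the AZA pair.

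Other members were not called with vehicle. The tryptase probes TPSAB1, TPSD1 and TPSG1, whose genes are near copies so that their probes may share targets, had log2 ratios of -0.67, -0.29 and -0.70. GATA2, a factor of mast cells and stem cells, read 1329.6 in MDS-L and 1314 in MDS-L/CDA vehicle, and LTC4S, which makes leukotriene C4, was the 1 member with a ratio above 1 (log2 ratio 0.35). PRG2, the eosinophil major basic protein, was near background with vehicle in both lines, at 27.9 and 22.0, the latter below background, and read 2668 in MDS-L AZA and 53.1 in MDS-L/CDA AZA.

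**Figure D3:**
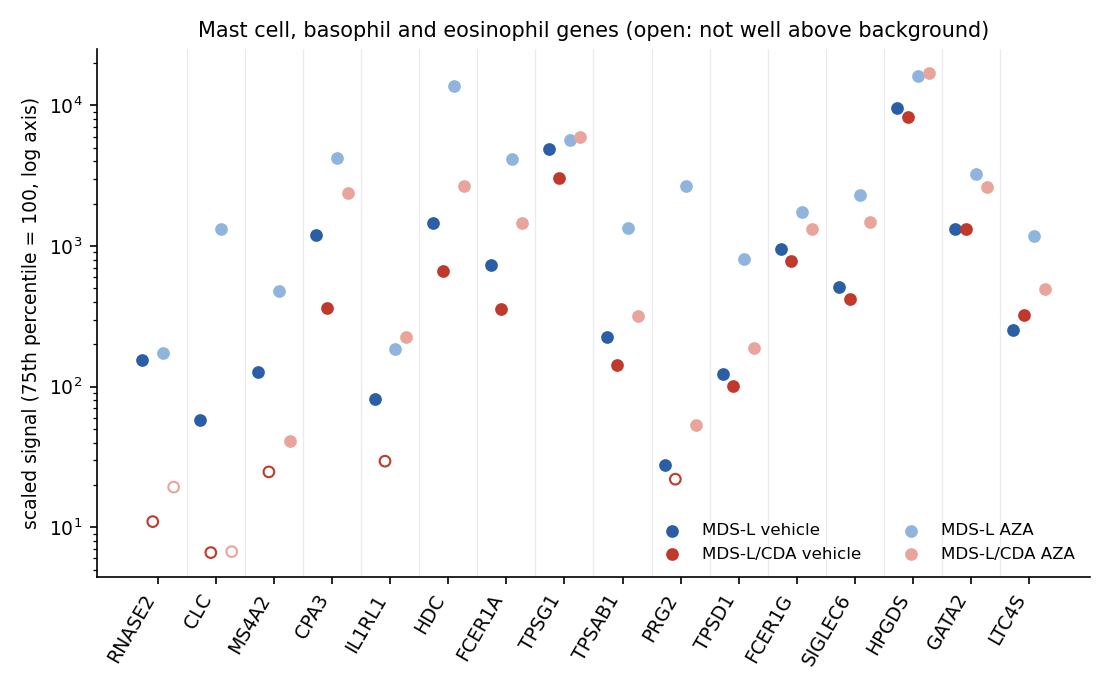
Scaled signal (log axis) of the 16 measured mast cell, basophil and eosinophil genes on the 4 arrays, 1 array per condition, ordered by the vehicle ratio. Open points were not well above background. The MDS-L/CDA vehicle point lies below the MDS-L vehicle point for 15 of the 16 genes, all but LTC4S. The 15 include genes that were measured in MDS-L alone with vehicle.

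The promoters of these genes are shown to describe the sequence before the start of called members. In RefSeq promoters of GRCh38.p14, in the 250 bases before the annotated start, all 7 called members had few CG dinucleotides, from 0 to 4, against a median of 11 over 27305 promoters in the table. The motif GATAA, searched on both strands as GATAA and TTATC, was present in 5 of the 7 (CLC, CPA3, FCER1A, HDC and MS4A2) and in 21.0% of all the promoters. Few CG were a trait of much of the list, as the 16 members with a promoter entry that were not called lower had from 0 to 33 with a median of 4.5, and 5 of these 16 held the GATAA motif. By contrast the promoter of CXCR4 held 24 CG and that of SLFN11 15. The promoters of MS4A2 (chr11:60088414-60088663, plus strand) and CPA3 (chr3:148865046-148865295, plus strand), with GATAA or TTATC in capitals, and of CXCR4 (chr2:136118150-136118399, minus strand), with CG in capitals, read as follows.
MS4A2: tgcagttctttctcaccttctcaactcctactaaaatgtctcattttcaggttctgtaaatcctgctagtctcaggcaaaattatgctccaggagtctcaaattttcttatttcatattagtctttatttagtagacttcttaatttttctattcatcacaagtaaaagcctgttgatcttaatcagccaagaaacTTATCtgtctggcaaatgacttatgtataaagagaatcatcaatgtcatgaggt
CPA3: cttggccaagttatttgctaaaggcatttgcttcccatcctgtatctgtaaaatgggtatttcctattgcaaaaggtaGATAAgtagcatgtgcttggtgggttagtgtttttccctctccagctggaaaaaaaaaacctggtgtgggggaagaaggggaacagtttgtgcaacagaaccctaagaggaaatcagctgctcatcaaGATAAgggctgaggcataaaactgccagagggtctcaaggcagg
CXCR4: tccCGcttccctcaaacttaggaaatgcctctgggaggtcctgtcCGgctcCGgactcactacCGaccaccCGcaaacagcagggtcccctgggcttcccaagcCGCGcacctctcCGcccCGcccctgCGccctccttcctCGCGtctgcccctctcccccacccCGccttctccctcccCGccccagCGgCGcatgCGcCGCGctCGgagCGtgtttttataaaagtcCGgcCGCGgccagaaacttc
MS4A2 and CPA3 hold no CG in this window. A motif match describes the letters and was not set against binding or methylation data. The promoters compared were not matched for CG content.

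GATA1, the erythroid, megakaryocytic and mast cell factor whose family binds GATA motifs, was called lower in both pairs. It read 126 in MDS-L vehicle and 1442 in MDS-L AZA, and 50.7 and 208 in MDS-L/CDA, 2.49-fold lower with vehicle and 6.94-fold lower with AZA. Each MDS-L/CDA array was lower than the MDS-L array of the same treatment. A link between GATA1 and the mast cell genes or their motifs was not tested. Among 21 measured erythroid genes the median log2 ratio was -0.13, against 0.07 over all measured genes. Called lower were 4 of the 21, where 3.59% of all tested genes were called lower. Besides GATA1 these were RHAG, an ammonium channel of the red cell (1626 against 613), CA2, carbonic anhydrase (2061 against 749), and ERMAP, which read 30.8 against a value below background, at least 1.13-fold. Erythroid genes within 2-fold in the vehicle pair included TFRC, the transferrin receptor (14672 against 15334), and GFI1B (log2 ratio 0.51), and adult and fetal globin genes HBB, HBA2 and HBG1 were below background on both vehicle arrays.

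Of 17 measured neutrophil and granulocyte genes, CSF3R and CTSG were called lower and none higher, where 3.59% of all tested genes were called lower. The median log2 ratio was -0.30, against 0.07 over all measured genes. CTSG, the protease cathepsin G, read 1134 in MDS-L vehicle and 529 in MDS-L/CDA vehicle, and 553 and 200 with AZA. The factors of the myeloid lineage were alike, with CEBPA at 12498 and 12683 and SPI1 at a log2 ratio of 0.15. With vehicle none of the 9 measured megakaryocyte genes was called, nor any of the 8 monocyte, macrophage and dendritic cell genes or the 14 progenitor and blast surface genes. With AZA 4 of 11 megakaryocyte genes were called lower, with a median log2 ratio of -1.01, and of 15 progenitor genes 3 were called higher and 2 lower. Of all genes tested with AZA 4.37% were called lower and 2.64% higher, and the median of all measured genes was 0.17. CD34, the progenitor antigen, read 1139.98 in MDS-L and 1139 in MDS-L/CDA vehicle, and KIT, the stem cell factor receptor, 50.3 and 34.6.

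Markers of cells foreign to these cultures were mostly below background in both lines. Of 25 T and NK cell genes on the array 7 were measured, with CD3D, CD3E and CD3G below background on both vehicle arrays, and the summed scaled signal of the list was 1879 in MDS-L and 2011 in MDS-L/CDA. Of 15 B cell genes 5 were measured, without MS4A1 or PAX5, and the sums were 2377 and 2382. Of 20 stromal and epithelial genes 5 were measured, without EPCAM or COL1A1, and the sums were 2167 and 2465. NCAM1 and IGLL1, an adhesion molecule and a surrogate light chain of B cell precursors, were called lower, at least 1.48-fold and 3.64-fold, and GZMB was on in MDS-L/CDA only at 42.6.

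Receptors and homeobox genes changed in single members. Of 24 measured haematopoietic cytokine receptors, 3 were called lower (3.59% of all tested genes), CSF3R, IL1RL1 and IFNAR2, the last through 1 probe (568 against 283) while its brightest probe had a log2 ratio of -0.07. Of 11 measured chemokines and chemokine receptors, 3 were on in MDS-L only (0.643% of all tested genes). Besides CXCR4 these were CCL23, a chemokine of myeloid cells (61.7 in MDS-L vehicle, at least 2.27-fold), and CCR7, a lymph node homing receptor (77.8, at least 2.86-fold), of which CCR7 was measured at 82.2 and 97.4 with AZA in MDS-L and MDS-L/CDA.

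HOXB6, a homeobox gene of myeloid progenitors, read 109 in MDS-L vehicle and 842 in MDS-L AZA, and was below background on both MDS-L/CDA arrays, at least 4.01-fold lower with vehicle. Its neighbour HOXB5 read 29.2 in MDS-L vehicle and 54.7 in MDS-L/CDA vehicle, and HOXB2 7273 and 7749, and neither was called. MEIS2, a cofactor of HOX proteins, was 2.55-fold lower with vehicle (287 against 113) and was not lower with AZA (189 against 258).

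No interferon-stimulated gene was called in the vehicle pair. Of 28 measured members 21 had a ratio above 1 and 7 below, and of all 15682 measured genes 9033 had a ratio above 1. The median log2 ratio of the members was 0.29, against 0.07 over all measured genes. IFI35, IFIT1, IFIT2 and IFIT3 had log2 ratios of 0.86, 0.77, 0.71 and 0.71. With AZA the median of the list was 0.21, against 0.17 over all, and 13 of 30 members had a ratio below 1. With vehicle the median of 16 HLA class I genes was 0.06, and HLA-F was called lower, at 2.05-fold, by a probe of whose neighbours 22.5% differed 2-fold. Of 10 HLA class II genes the median was -0.29, or -0.07 over the 8 measured on both arrays. HLA-DPA1 was called lower at 33.2 against a value below background, at least 1.22-fold, and 10% of the neighbours of its probe differed 2-fold. Of 24 measured p53 target genes 1 was called lower, where 3.59% of all tested genes were called lower. This was TP53INP1, a stress protein that promotes autophagy (423 against 122). Of 27 integrated stress response genes none was called. The 6 AZA-responsive genes on which the study centred were below background on both vehicle arrays, as were all but 3 of 36 cancer-testis genes.

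Of 36 proliferation genes, all measured, 2 were called higher and 1 lower, where 1.59% of all tested genes were called higher and 3.59% lower. A ratio above 1 was found for 28 of the 36, and for 9033 of the 15682 measured genes, and the median log2 ratio was 0.20, against 0.07 over all measured genes, and with AZA 0.83 against 0.17. Of the 36, MCM7 and ORC1, both parts of the machinery that licenses replication origins, were called higher, and PCNA, the replication clamp, was called lower through 1 probe while its brightest probe had a log2 ratio of -0.15. MCM7 read 32184 and 22332 in MDS-L, vehicle first, and 83418 and 77621 in MDS-L/CDA. Both MDS-L/CDA arrays were higher, and the vehicle ratio was 2.59-fold. With vehicle no other member of its complex was called, and MCM2, MCM3, MCM4, MCM5 and MCM6 had log2 ratios of 0.28, 0.20, 0.30, 0.34 and -0.17.

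MCM7 lies in a stretch of chromosome 7 in which most measured genes were higher in MDS-L/CDA. For each of 289 windows of 10 Mb with at least 10 genes well above background on both vehicle arrays, the median log2 ratio was taken by the hg19 position of the brightest probe of a gene. The SD of the window medians was 0.11, and the median over the 14205 genes was 0.09. The 3 highest windows were neighbours on chromosome 7. From 90 to 100 Mb the median was 0.86 over 64 genes, from 100 to 110 Mb 0.62 over 76 genes and from 110 to 120 Mb 0.60 over 21 genes. The window after them, from 120 to 130 Mb, had a median of 0.01, and the windows from 0 to 80 Mb lay between -0.03 and 0.16.

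**Figure D4:**
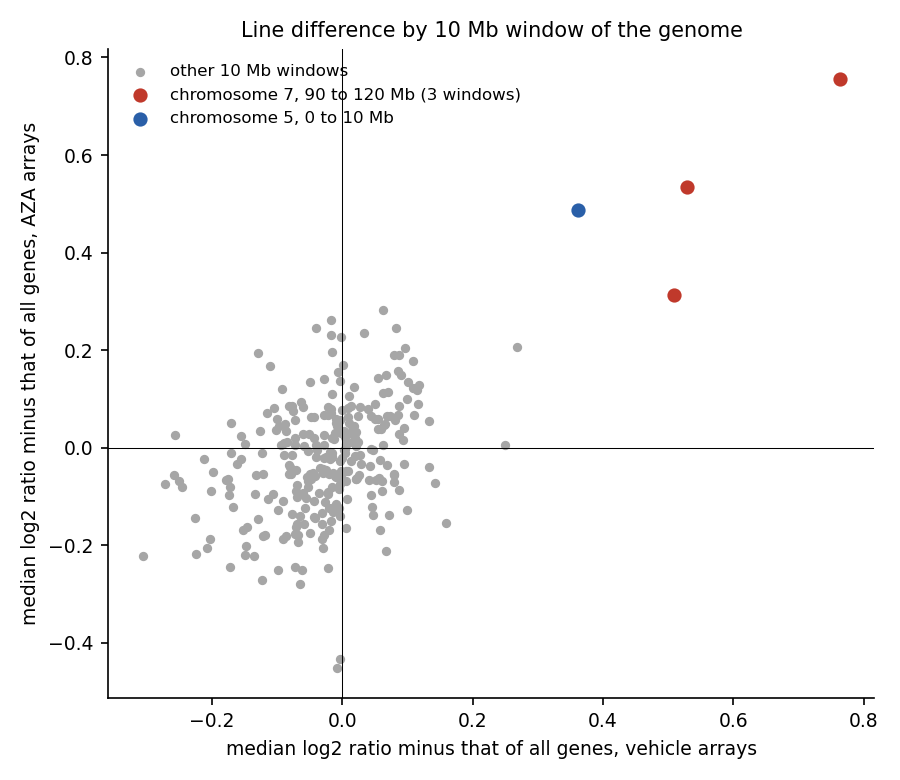
Median log2 ratio of MDS-L/CDA over MDS-L in 10 Mb windows, minus that of all genes, on the vehicle arrays (x axis) and the AZA arrays (y axis), 1 point a window. The chromosome 7 windows from 90 to 110 Mb and the first window of chromosome 5 lie apart in both pairs; chromosome 7 from 110 to 120 Mb stands 0.51 above all genes with vehicle and 0.31 with AZA, where the next window is at 0.28.

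The AZA pair, which used other arrays, showed the same stretch. There the 3 windows had medians of 1.00, 0.77 and 0.55, against 0.24 over all genes. Over the whole 90 to 120 Mb, the median ratio was 1.66-fold with vehicle (161 genes, quartiles of the log2 ratio 0.41 and 1.00), 140 of the 161 genes had a ratio above 1, and the median with AZA was 1.77-fold (155 genes). Of 169 tested genes in the stretch, 42 (24.9%) were called higher and 1 lower, where 1.59% of all tested genes were called higher. With AZA 45 of 180 tested genes in it (25%) were called higher, against 2.64% of all. The stretch held 21 of the 51 genes that were called higher in both pairs, or 41.2%.

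**Figure D5:**
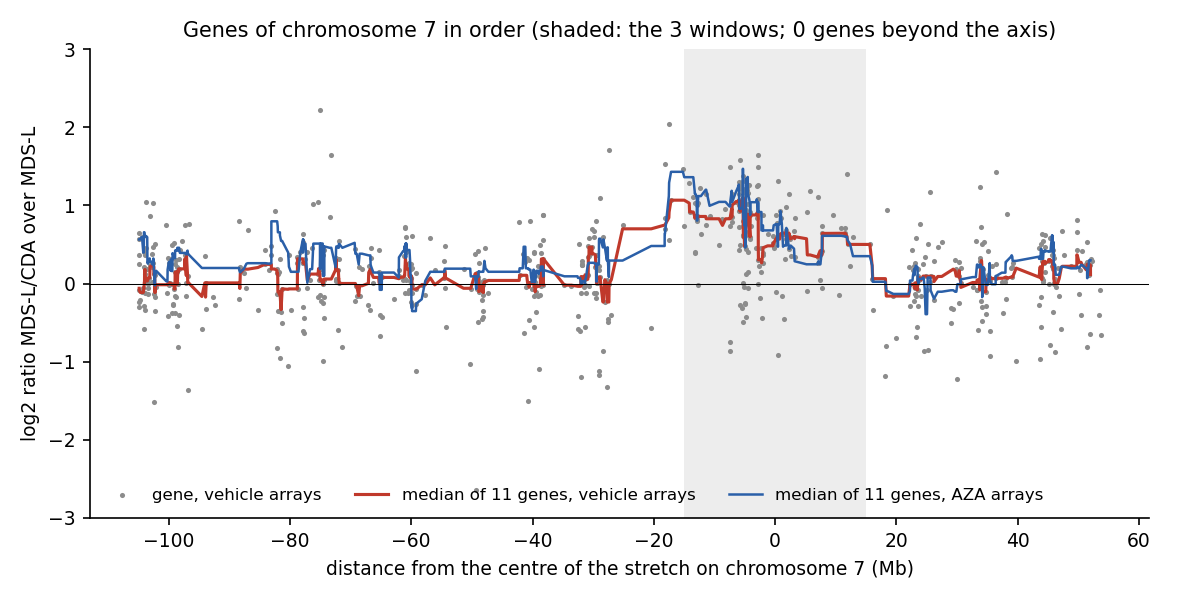
Log2 ratio of MDS-L/CDA over MDS-L for the genes of chromosome 7 well above background on both vehicle arrays (points) by distance from the centre of the stretch, with running medians of 11 genes for the vehicle arrays (red) and the AZA arrays (blue). Both lines rise over the shaded 90 to 120 Mb and a few Mb before it. On either side they return to near the median of all genes, 0.09 with vehicle and 0.24 with AZA.

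Read gene by gene, the shift began before the first window. The 7 genes measured between 85 and 90 Mb, a window with too few genes to be counted, had log2 ratios above 0 and a median of 1.07, while the 352 genes from 0 to 85 Mb had a median of 0.06. After 120 Mb the median over 159 genes was 0.09. These limits were chosen after the values were seen. The genes of the stretch named next differ in function, and the functions of all its genes were not tested. ARPC1A and ARPC1B, alternative subunits of the actin-nucleating complex, were 2.35-fold and 2.32-fold higher with vehicle. COPS6, a subunit of the COP9 signalosome, read 4088 against 9382, LAMTOR4, of the lysosomal Ragulator complex, 7633 against 17067, and CPSF4, of the polyadenylation complex, 1718 against 4218. POLR2J, a subunit of RNA polymerase II, was higher by both of its measured probes, at log2 ratios of 1.49 and 0.88.

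The genes of the stretch differed by unequal amounts. CDK6, a kinase of the G1 phase, read 7746 in MDS-L vehicle and 7651 in MDS-L/CDA vehicle, although with AZA it read 2322 and 8051. SAMD9L and CUX1, genes of this region known from myeloid disease, had log2 ratios of 0.63 and 0.45 by their brightest probes, and KMT2E 0.46. These values lay within the quartiles of the stretch, 0.41 and 1.00. With AZA the same probes of SAMD9L, CUX1 and KMT2E had log2 ratios of 1.00, 0.85 and 1.00. A dimmer CUX1 probe (31.6 against 86.0) was called higher with vehicle. SAMD9 and MET were below background on all 4 arrays. The array measures RNA, and gene copy number was not measured.

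The next highest window was the first of chromosome 5, from 0 to 10 Mb, with a median log2 ratio of 0.45 over 38 genes with vehicle and 0.73 over 35 genes with AZA. Within it the difference lay in the first 2 Mb, a limit chosen after the values were seen, where 28 genes had a median of 0.60, against 0.16 for the 10 genes from 2 to 10 Mb and 0.05 for the 573 genes beyond. Of 32 tested genes in the first 2 Mb 9 were called higher and none lower, where 1.59% of all tested genes were called higher.

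TERT, the reverse transcriptase of telomerase, lies there (chromosome 5, 1253305 to 1253364 of hg19). It read 681 and 91.6 in MDS-L, vehicle first, and 1581 and 1003 in MDS-L/CDA, so it was 2.32-fold higher with vehicle and 10.9-fold higher with AZA. CEP72, a centrosomal protein, read 2434 and 1887 in MDS-L and 6302 and 5561 in MDS-L/CDA. TRIP13, an ATPase of the mitotic checkpoint, read 8802 and 4629 in MDS-L and 17371 and 13685 in MDS-L/CDA, with a vehicle ratio of 1.97. All 3 were higher on the MDS-L/CDA array of each treatment, and the transcript ENST00000507290 described above lies in the same 2 Mb.

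Beyond these 4 windows, none had a median more than 0.3 above that of all genes, and 1 lay more than 0.3 below it. Chromosome 7 had the widest spread of log2 ratios of any chromosome, with an interquartile range of 0.64.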

How the data were processed

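Total RNA from both lines, after vehicle or AZA for 72 h, was hybridized with 1 dye (Cy3) to 4 arrays on 1 slide. Per the file headers, the authors deposited the intensity of each spot from Agilent Feature Extraction 10.7.1.1, background-subtracted within the array and not normalized between arrays, with probe positions in hg19. Their value table, also of intensity, holds 51680 probes and was used as an alternative. Control spots, outlier spots and 16 probes were left out, and log2 signals of 58185 probes were averaged per probe and scaled to the 75th percentile. No spot was saturated. The number of arrays limits the precision. For probes with 10 spots, well above background, the median SD between spots was 0.12 in MDS-L vehicle and 0.15 in MDS-L/CDA vehicle on the log2 scale, which covers neither hybridization nor culture. The Z score divided the log2 ratio by its SD in 10 bins of mean signal, with bins chosen here. Lists are described by the brightest probe of a gene.

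The genes named are CDA, DNMT1, the 10 largest ratios in each direction, the 10 largest bounds of genes on in 1 line and members of 23 lists with 648 entries. The members and lists were chosen with earlier results of these data known. Promoters are from RefSeq (GRCh38.p14). Some members of these lists are not reported here. The calling rule was tested on simulated data. Alternatives were 6 normalizations, kept outlier spots, 1 probe a gene, brighter probes only, other Z scores, ratios and bounds, and, added after the data had been seen, leaving out probes with disturbed neighbours and the AZA pair. The work was done in R 4.3.3 with limma 3.58.1 and in Python 3.11.15 with pandas 2.3.3, numpy 2.4.6, matplotlib 3.10.9 and scipy 1.17.1.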

Additional observations from a re-analysis of the deposited data

Results flagged for a closer look

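POLR2E, a subunit of RNA polymerase II, was called in opposite directions in the vehicle and AZA pairs, which was not tested. Its log2 ratio of MDS-L/CDA over MDS-L was -3.02 with vehicle and 1.04 with AZA. The probe read 13361 on the MDS-L vehicle array and between 1650 and 3561 on the other 3, and 12.5% of its neighbours on the array differed at least 2-fold. Another POLR2E probe had a vehicle log2 ratio of 0.12. The part of the position on the array in this difference was not tested.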

How the results depend on the processing

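The 250 higher genes became 75 with median scaling, 106 with no scaling, 40 with normexp, 500 with no Z score and 74 at a ratio of at least 4. The 563 lower genes became 1793 with median scaling, 1224 with no scaling, 287 with normexp, 938 with no Z score, 186 at a ratio of at least 4 and 361 when both arrays had to be well above background. The 81 genes on in MDS-L/CDA only became 53 with quantile normalization of the 4 arrays, 16 with median scaling, 25 with no scaling, 2 with normexp, 50 with the authors' value table, 31 with a signal of at least 20, 197 at any lower bound and 6 at a bound of at least 4. The 101 genes on in MDS-L only became 309 with median scaling, 220 with no scaling, 11 with normexp, 1246 at any lower bound and 24 at a bound of at least 4. Median scaling and no scaling shift all ratios alike by construction. The settings of the Z score, ratio, bound and signal loosen or tighten the calling rule by construction. The normexp correction was run with an offset of 50, which by construction makes ratios of dim probes smaller. The cause was not tested for the remaining settings.

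Relative to all genes, the mast cell, basophil and eosinophil list had a median log2 ratio of -0.75, which became -0.37 with normexp, -0.38 over the 11 members well above background on both arrays and -1.73 in the AZA pair. The value in the AZA pair includes members measured in MDS-L alone. The stretch of chromosome 7 from 90 to 120 Mb stood 0.64 above all genes, and 0.41 with normexp. The first window of chromosome 5 stayed between 0.28 and 0.49 under every alternative run, with 0.36 as reported. Over the normalizations, 150 of 244 values of named genes moved by more than the SD of a difference between spots and none of a called gene changed sign, while in the AZA pair POLR2E, CYP20A1, ZNF791, CCDC174, TFCP2, CCNJ and CREB1 were among those with the opposite sign. No paired analysis was possible because each condition had 1 array. Signal near background limits the ratios of genes on in 1 line to bounds.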
